A study of Mus musculus with 12 samples.

Results

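The microRNAs (miRNAs) present in cells given vehicle in place of insulin were read in the 6 vehicle libraries of mHypoE-46 cells, out of 12 libraries in the study. Every mouse miRNA probe of the panel was kept, 566 of 620 probes. The 6 libraries were pooled as 1 set, without a comparison of times or treatments.

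mHypoE-46 is an immortalised, clonal line from embryonic mouse hypothalamus, labelled as male, neuronal and expressing neuropeptide Y and agouti-related peptide. All cells grew in DMEM with fetal bovine serum and penicillin-streptomycin. The vehicle was phosphate buffered saline, and total RNA was taken 4 h (3 libraries) or 24 h (3 libraries) later. Libraries of cells given 100 nM insulin are not used here. The design text describes 3 independent repeats, and the labels number the replicates 1 to 3 at each time. Every library came from 1 cell line, so the spread covers repeat cultures and both times, not animals.

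A miRNA is a short RNA cut from a hairpin precursor. One arm of the hairpin, the 5p or the 3p arm, is usually loaded into an Argonaute protein as the guide, and the other arm is usually degraded. The guide finds messenger RNAs mainly through its seed, bases 2 to 8, so miRNAs with 1 seed form a family with overlapping targets. In brain, miR-124 and miR-9 are known as markers of the neuronal lineage, miR-9 also of neural progenitors, and let-7 and miR-125 as families that rise as neural cells mature.

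The sequences below are those of the miRNAs that hold most of the counts, of miR-9, and of 1 hairpin whose 2 arms were both read. They are RefSeq mature miRNAs (GRCm38.p6), written 5′ to 3′ with the seed in capitals. Of the 566 probes, 322 were matched to a RefSeq mature sequence by name, and of the 108 probes described below as above background in every library, 79 were matched. An older probe name without an arm was taken as the usual guide arm.
let-7c: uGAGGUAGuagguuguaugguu
let-7b: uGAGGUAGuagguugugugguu
let-7a: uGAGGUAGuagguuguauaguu
let-7d: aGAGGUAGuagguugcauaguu
let-7g: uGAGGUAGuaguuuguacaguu
miR-125b-5p: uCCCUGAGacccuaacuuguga
miR-125a-5p: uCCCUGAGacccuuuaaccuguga
miR-29b: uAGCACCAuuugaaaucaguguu
miR-29a: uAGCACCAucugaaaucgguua
miR-29c: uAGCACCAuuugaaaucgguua
miR-16: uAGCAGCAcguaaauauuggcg
miR-15b: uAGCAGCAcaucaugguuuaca
miR-15a: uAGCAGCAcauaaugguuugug
miR-21: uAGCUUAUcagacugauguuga
miR-22: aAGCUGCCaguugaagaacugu
miR-9: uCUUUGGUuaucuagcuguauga
miR-345-5p: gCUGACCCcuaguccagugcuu
miR-345-3p: cCUGAACUaggggucuggagac
The members of a family match in the capitals and differ mainly after them. Counted from 1 at the 5′ end of let-7c, let-7a differs from it by G19A alone and let-7b by A17G alone. Such near copies can be read by each other's probes, so levels of single let-7 members are uncertain. miR-125b-5p is encoded at chr9:41581940-41581961 (plus strand) and chr16:77646279-77646300 (plus strand). miR-29b lies at chr1:195037091-195037113 (plus strand) and chr6:31063025-31063047 (minus strand). miR-21 lies at chr11:86584120-86584141 (minus strand) and miR-22 at chr11:75463772-75463793 (plus strand). Where 2 hairpins give the same mature miRNA, its probe cannot tell them apart.

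The 6 libraries held between 142158 and 269357 counts over the mouse miRNA probes. Background was set in each library at the mean plus 2 SD of its 8 negative control probes, which gave thresholds of 53.3 to 118 counts. Levels are given in CPM, the count divided by the library's total of mouse miRNA counts and multiplied by 1000000. On this scale the thresholds were 295 to 541 CPM. The first 4 h replicate stood apart: its mean Pearson correlation with the other libraries was 0.956 over the log2 CPM of the 108 miRNAs, against 0.978 to 0.984 for each of the other 5. It was the lowest or the highest library for 72 of these 108 miRNAs, and it had the highest threshold in CPM. Values without it are given beside the results it moved most. The libraries of the 2 times were pooled by rule, but the CPM at 4 h and at 24 h did not overlap for 110 of the 566 mouse probes (19.4%) and for 44 of these 108 miRNAs. Means, ranks and spreads over the 6 libraries therefore include any difference between the times, and between the lanes, which were in order of time.

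Of the 566 mouse probes, 108 (19.1%) lay above background in all 6 libraries, 103 in 1 to 5 libraries, and 355 (62.7%) in none. The 108 probes held 89.5 ± 2.08% of the mouse miRNA counts (SD, n = 6 libraries), and the 355 probes held 6.25 ± 1.41%. Probes for viral miRNAs, which these cells have no labelled reason to express, were also read, and 1 of the 33 (3.03%) lay above background in all 6 libraries. Of the 108 mouse probes, 34 did not exceed the highest viral probe in every library, and 74 did. A count in the lower part of the 108 therefore comes from a range that viral probes also reach. Without the first 4 h replicate, 118 probes lay above background in every remaining library.

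Levels fell steeply with rank. There were 20 probes above 10000 CPM and 53 between 1000 and 10000 CPM on average. The 10 most abundant probes held 52.4 ± 1.77% of the counts. Probes differ in how well they capture their target, so the order is one of counts rather than of molecules.

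**Figure D1:**
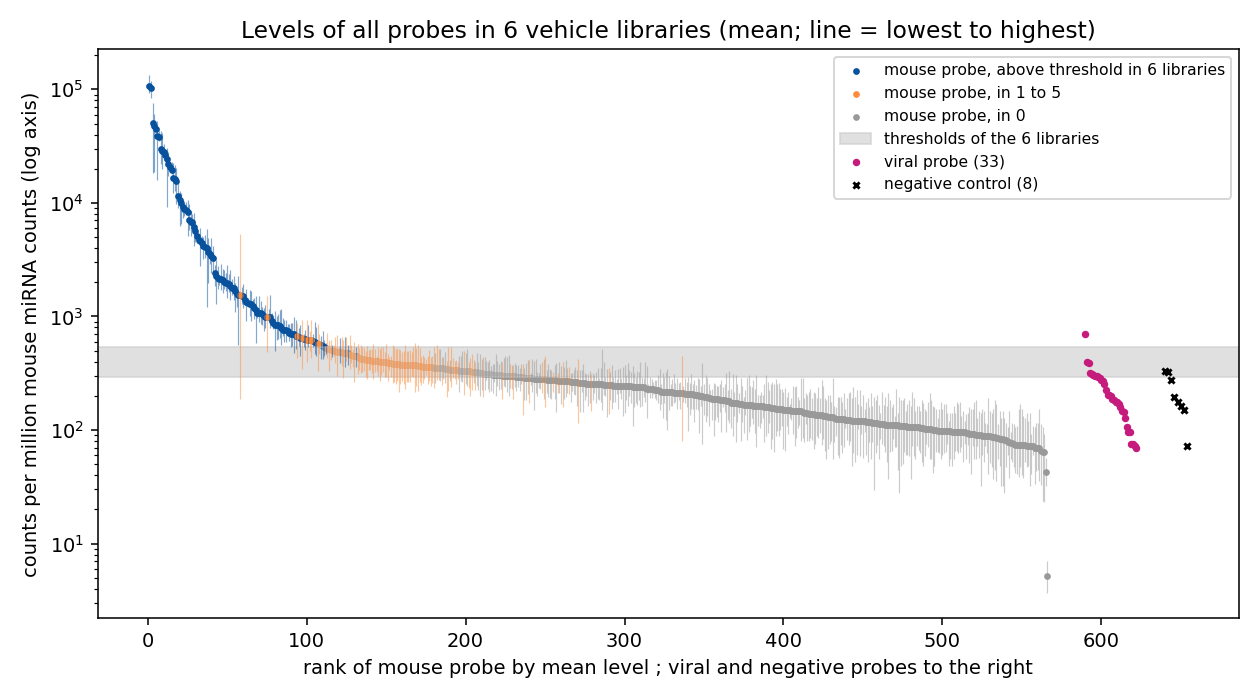
Mean level of each of the 566 mouse probes against its rank, in CPM on a log axis, with a line from the lowest to the highest of the 6 libraries. The 108 blue probes lay above background in every library, the orange probes in 1 to 5 and the grey probes in none, the grey band spans the 6 thresholds (295 to 541 CPM), and the 33 viral and 8 negative control probes stand at the right at the levels of the grey and orange probes, 1 viral probe above the band.

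The probe with the highest mean was miR-720, at 106981 ± 13753 CPM. Its counts in the 4 h replicates 1 to 3 were 18873, 16465 and 19849, and in the 24 h replicates 17861, 27864 and 27271. The RNA behind this name is known as a piece of a transfer RNA and does not come from a miRNA hairpin. miR-125b-5p, which is known in brain as a regulator of neuronal differentiation, followed at 101681 ± 14926 CPM. Its counts were 16729, 17117 and 24481 in the 4 h replicates and 18222, 22543 and 21054 in the 24 h replicates. The order of these 2 probes was not settled, since miR-720 was the higher in 3 of 6 libraries. Both stood apart from the rest: miR-125b-5p exceeded the third probe, miR-29b, in 6 of 6 libraries.

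Ranks 3 to 7 were taken by miR-29b, let-7c, miR-21, miR-16 and miR-29a, and their order changed between libraries. miR-29b, a regulator of collagen and other matrix messenger RNAs, averaged 50003 ± 23384 CPM. Its counts were 2594, 4640 and 9294 in the 4 h replicates and 10979, 20289 and 18169 in the 24 h replicates. All 3 CPM values at 4 h (18247 to 43539) lay below all 3 at 24 h (60812 to 75324), so its place at rank 3 belongs to the pooled mean. It ranked 3 in its best library and 14 in its worst, the first 4 h replicate, without which it averaged 56354 CPM. let-7c, of a family known to restrain growth genes, averaged 47223 ± 16072 CPM. Its counts were 2644, 6150 and 11846 in the 4 h replicates and 9010, 16388 and 14858 in the 24 h replicates, again lowest in the first 4 h replicate, without which the mean was 52948 CPM.

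miR-21, a miRNA abundant in many proliferating cell lines, averaged 44591 ± 3540.5 CPM. Its counts were 5956, 7517 and 10659 in the 4 h replicates and 7997, 11257 and 10456 in the 24 h replicates, which follow the library totals closely. miR-16, a repressor of cell cycle genes, averaged 38809 ± 14517 CPM, or 43371 CPM without the first 4 h replicate, and ranked between 5 and 16. miR-29a, with the same seed as miR-29b, averaged 37756 ± 3037 CPM and ranked between 5 and 7. The 2 miR-29 members thus had a very different spread, 18247 to 75324 CPM for miR-29b and 34915 to 42910 CPM for miR-29a. All 3 values of miR-29b at 24 h lay above the range of miR-29a, and its lowest value at 4 h lay below that range.

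The next probes were miR-22 at 29891 ± 8116 CPM, let-7b at 28925 ± 8216 CPM and miR-125a-5p at 27868 ± 3271 CPM. They were followed by miR-15b at 26617 ± 1761 CPM, let-7a at 24309 ± 9006 CPM and let-7d at 22070 CPM on average. Neighbours in this order changed places in some library in each of the pairs from miR-29b and let-7c down to miR-25 and let-7g. Ranks 14 and 15 were held by the probe that reads miR-1937a and miR-1937b together (20759 ± 1289 CPM) and by miR-1944 (19639 ± 1834 CPM). Neither probe was matched to a RefSeq mature sequence, so whether their RNAs come from miRNA hairpins was not checked. The last 5 of the top 20 were miR-15a, miR-27a, the joint probe for miR-106a and miR-17, miR-25 and let-7g, from 16723 CPM down to 10679 CPM.

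**Figure D2:**
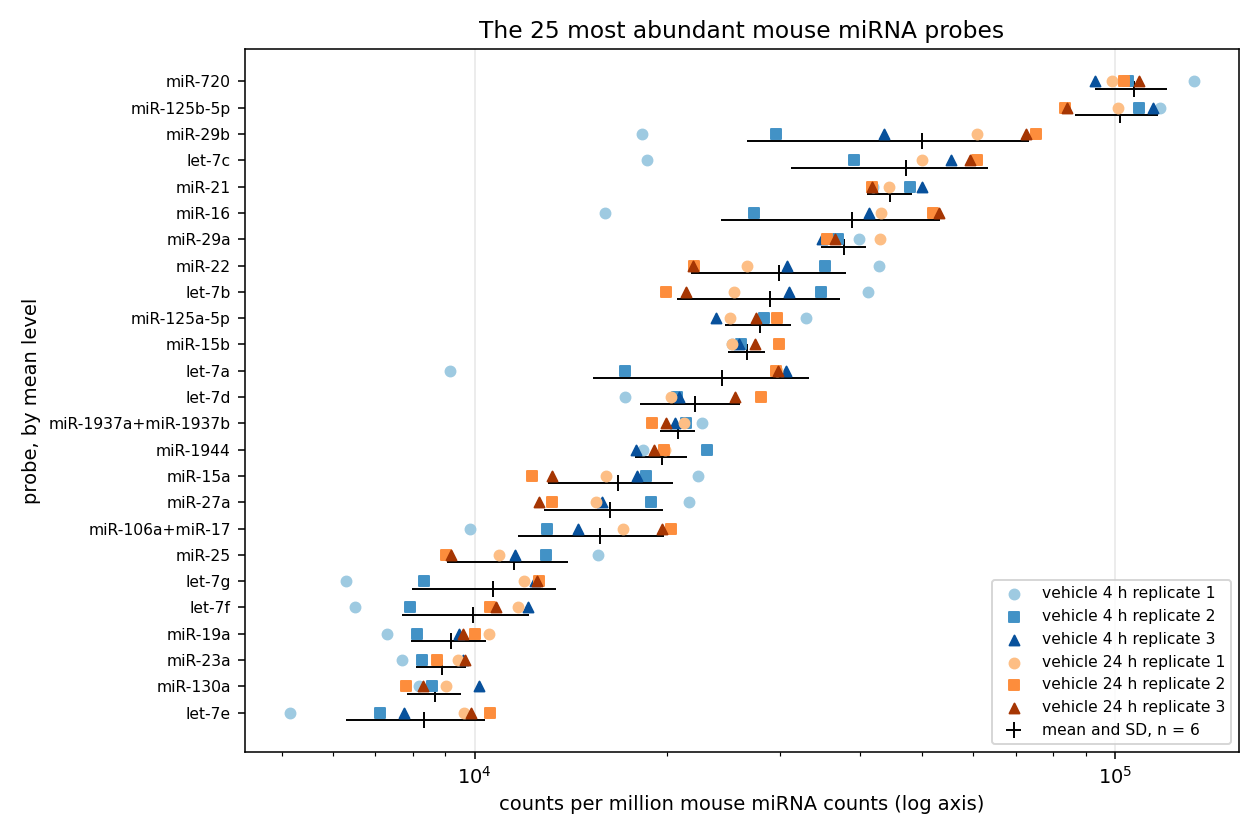
Levels of the 25 most abundant mouse miRNA probes in each of the 6 vehicle libraries, in CPM on a log axis, with the mean and SD under the points. miR-720 and miR-125b-5p lie to the right of the rest, and the first 4 h replicate (pale blue circles) lies far to the left for miR-29b, let-7c, miR-16 and let-7a but not for miR-21 or miR-29a.

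Grouped by seed, the matched probes fell into 259 seeds, of which 33 were shared by 2 or more probes. The 10 families with the largest shares held 61.1 ± 3.91% of all mouse miRNA counts with 35 probes. In 10 of the 33 shared-seed families every probe lay above background in all 6 libraries, in 6 no probe did in any library, and 17 were mixed.

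The let-7 family, with seed GAGGUAG, held the largest mean share, 16.1 ± 2.66% of counts. Its share was 11.5, 14.4 and 18.1% in the 4 h replicates and 16.7, 18.1 and 17.8% in the 24 h replicates. The first 4 h replicate was lowest, and without it the mean was 17.0%. All 9 let-7 and miR-98 probes lay above background in all 6 libraries, while miR-1961, which shares the seed but not the name, did in none. No single member dominated, as let-7c made up 29.3% of the family.

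The miR-125 family, with seed CCCUGAG, held 13.0 ± 1.54% of counts through 2 probes, of which miR-125b-5p gave 78.5%. Its share was 15.1, 13.7 and 13.8% in the 4 h replicates and 12.6, 11.3 and 11.2% in the 24 h replicates. The let-7 share exceeded it in 5 of 6 libraries, and in the first 4 h replicate miR-125 was the higher. Members of both families lie beside each other in the genome: let-7e and miR-125a share chr17:17830352-17830879, within the span of Spaca6, and both probes were above background in all 6 libraries. The related miR-99/100 family (seed ACCCGUA), which sits in the same kind of clusters, held 1.29 ± 0.223% of counts and all 3 of its probes were above background in every library. Its highest member, miR-99b, averaged 7049 ± 1435 CPM.

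The miR-29 family (seed AGCACCA) held 8.98 ± 2.34% of counts and the miR-15/16 family (seed AGCAGCA) 8.37 ± 1.28%. Without the first 4 h replicate these shares were 9.58% and 8.76%. miR-29c, the third miR-29 member, was far below the other two at 2031 ± 336 CPM. miR-322, which shares the miR-16 seed, was the lowest of the 4 matched members at 1556 ± 660 CPM. miR-21 alone held 4.46 ± 0.354% of counts and miR-22 alone 2.99 ± 0.812%.

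The miR-17 family (seed AAAGUGC), which promotes cell cycle entry, held 2.87 ± 0.549% through 4 probes that were all above background in all 6 libraries. The miR-27 family held 1.69 ± 0.362%, of which miR-27a gave 96.0%. miR-19a and miR-19b together held 1.36 ± 0.126%, with miR-19a the higher member at 9177 ± 1222 CPM. The seed shared by miR-25 and miR-92 (AUUGCAC) held 1.30 ± 0.266%, and there miR-25 (11532 ± 2468 CPM) gave 88.4% while the other 5 probes did not reach background in every library.

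**Figure D3:**
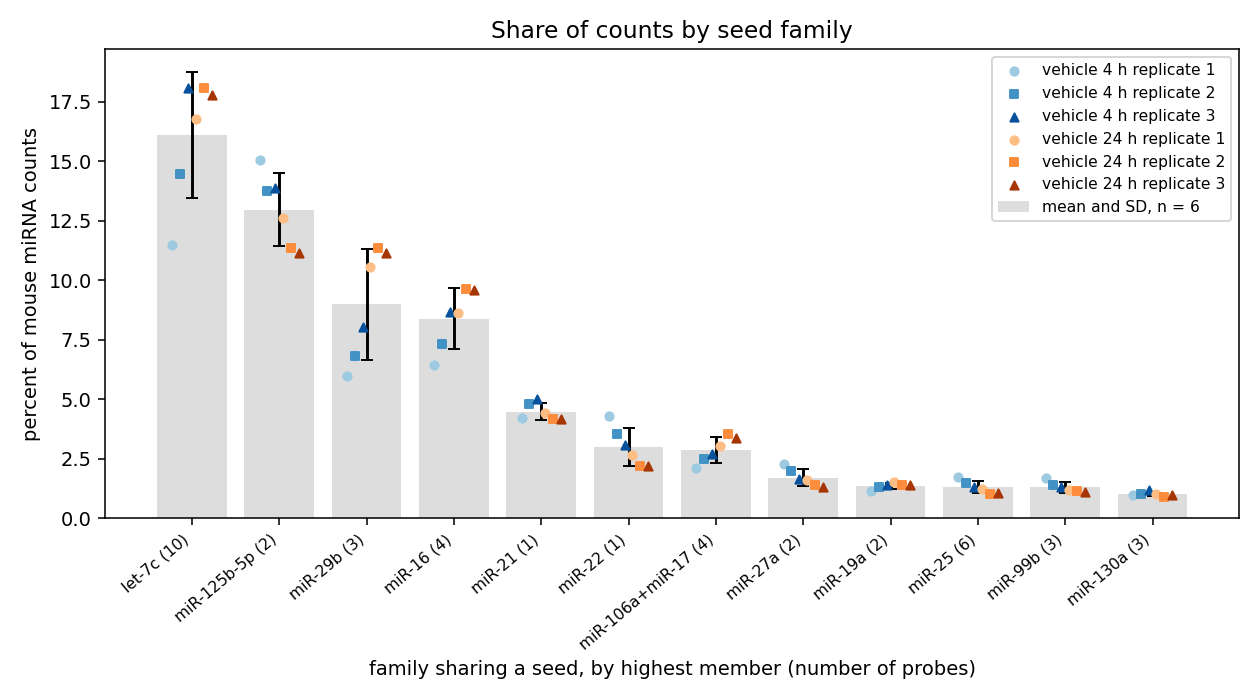
Percent of mouse miRNA counts held by the 12 seed families with the largest shares, each named by its highest member with its number of probes in brackets. Bars are means with SD over 6 libraries and points are the libraries, where the first 4 h replicate (pale blue circles) is lowest for the let-7, miR-29 and miR-16 families and highest for the miR-125 and miR-22 families.

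Matched probes whose hairpins lie within 10000 bases of each other on 1 strand formed 39 clusters. In 14 of these every matched probe was above background in all 6 libraries, in 3 no matched probe was in any, and 22 were mixed. Unmatched probes do not enter these counts. Among them are miR-539 and miR-485, which were above background in all 6 libraries and whose hairpins lie in 1 of the clusters. A probe with hairpins in more than 1 cluster counted in each, and both arms of 1 hairpin counted as separate probes. The let-7a, let-7d and let-7f hairpins at chr13:48536012-48538272 (minus strand) were all represented, as were miR-23a, miR-27a and miR-24 at chr8:84208518-84208921 (plus strand). miR-25, miR-93 and miR-106b at chr5:138165321-138165818 (minus strand) lie within the span of Mcm7, a replication licensing gene. All 3 of their probes were above background in all 6 libraries. miR-15b and miR-16 share chr3:69009772-69009996 (plus strand), within the span of Smc4, a condensin subunit gene. Gene spans alone were compared, without exons or strand.

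The miR-17-92 cluster, chr14:115043671-115044506 (plus strand), was read unevenly. Of its 6 probes, 4 were above background in all libraries, and 3 of these (the joint probes and miR-19b) also read copies on the X chromosome. miR-18a was above background in 5 of 6, with 71, 99 and 120 counts in the 4 h replicates and 131, 199 and 140 in the 24 h replicates. miR-92a, from the same precursor transcript, had 22, 21 and 24 counts in the 4 h replicates and 19, 31 and 29 in the 24 h replicates. It was below background in every library, next to 1021 to 2280 counts for the joint miR-20a and miR-20b probe of that cluster. Probes differ in capture, so these counts do not give the ratio of the molecules. The cluster of miR-182, miR-96 and miR-183 (chr6:30165918-30169737, minus strand) was also split, with miR-96 at 265 to 449 counts and miR-182 at 27 to 69 counts, the latter below background in all 6 libraries.

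Lists of miRNAs with known tissue or cell roles were then set against the same background. All members were above background in all 6 libraries for let-7 and miR-98 (9 of 9), miR-125 with miR-99/100 (5 of 5), miR-23/27/24 (5 of 5), miR-30 (5 of 5), miR-29 (3 of 3), miR-26 (2 of 2) and miR-221 with miR-222 (2 of 2). The share over all mouse probes was 19.1%. The miR-17-92 list followed with 7 of 11 (8 without the first 4 h replicate), the miR-15, miR-16 and miR-322 list with 4 of 6, miR-181 with 2 of 3 and miR-34 and miR-449 with 2 of 6. The median level of a member was 12176 CPM in the let-7 list, 1287 CPM in the miR-30 list and 300 CPM in the miR-34 and miR-449 list, against 247 CPM over all 566 probes. Leading members of the smaller families were miR-30b (5162 ± 711 CPM), miR-181a (1955 ± 602 CPM), miR-34c (1386 ± 122 CPM) and miR-26a (1283 ± 354 CPM). miR-103 and miR-107, paralogues known in liver and fat as regulators of insulin sensitivity, were both above background in every library, at 1669 ± 305 CPM and 1246 ± 122 CPM.

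In the neuron-enriched list 2 of 29 miRNAs (6.90%) were above background in all 6 libraries, against 19.1% of all mouse probes. A further 12 (41.4%) were above it in 1 to 5 libraries, against 18.2% of all probes, and 15 (51.7%) in none, against 62.7%. Many members thus lay near the threshold, and the count depended on it. With the highest negative control as threshold 6 of 29 (20.7%) were above background throughout, close to the 21.7% of all probes. With 3 SD 1 of 29 (3.45%) was, against 16.3% of all probes, and with the highest viral probe 1 of 29 (3.45%), against 13.1%. Without the first 4 h replicate 4 of 29 (13.8%) were, against 20.8%, miR-218 and miR-338-5p being the 2 added. The median level of the list was 289 CPM, against 247 CPM over all probes. miR-9 was the exception in level. Its counts were 1063, 1254 and 1515 in the 4 h replicates and 1147, 1537 and 1507 in the 24 h replicates, 13.1 to 22.3 times the library's threshold. It averaged 6773 ± 891 CPM and ranked 24 to 28 in the single libraries. The other was miR-135a, with 86 to 215 counts.

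miR-124, the most abundant miRNA of many mature neurons, had 44 to 95 counts, 0.611 to 0.826 times the threshold, and was below background in 6 of 6 libraries. miR-137 and miR-138, enriched in adult forebrain, had 10 to 24 and 12 to 26 counts and were likewise below background throughout. miR-212 was below background in all 6 libraries. miR-132, whose hairpin lies in the same cluster and which is induced by neuronal activity, was above background in 4 libraries with 71 to 117 counts. miR-128 was above it in 3 libraries with 66 to 98 counts. Of the 10 neuronal markers set as a check of the label, 1 was above background in all libraries, 6 in some and 3 in none. Of all mouse probes 62.7% were in none and 18.2% in some. Their summed level was 8520 to 11154 CPM, most of it from miR-9. Of these 10 markers miR-9 alone was above background throughout, and miR-124, miR-137 and miR-138 were above it in no library. As miR-9 also marks neural progenitors, these markers do not settle the neuronal label. In bulk samples of 1 clonal line, fewer cells expressing a miRNA and less of it per cell cannot be told apart.

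Of the 32 markers of other cell types, 20 (62.5%) were above background in no library, 7 in some and 5 in all 6, close to the 62.7% of all mouse probes in none. miR-7a, set as a marker of both neurons and endocrine cells, is counted here and among the neuronal markers. Over the longer lists, 3 of 10 epithelial miRNAs and 3 of 14 glial and mesenchymal miRNAs (21.4%) were above background in all 6 libraries, against 19.1% of all probes. With the highest viral probe as threshold these 2 lists had 1 and 2 members above it throughout, against 13.1% of all probes. The glial markers miR-219 and miR-338-3p were below it in every library, although miR-338-5p, the other arm of the second hairpin and a member of the neuron-enriched list, was above it in 5 of 6. miR-143 and miR-145, a pair typical of smooth muscle and fibroblasts, were above it in every library, with 198 to 551 and 493 to 820 counts and mean levels of 1846 ± 400 and 3385 ± 992 CPM. The other mesenchymal markers, miR-199a-3p and miR-214, were below background in all 6 libraries. The 4 markers of that type summed to 4693 to 7168 CPM. Whether cells of that type were present in this clonal line was not tested.

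Among blood and microglial markers, miR-155 was above background in all 6 libraries (114 to 184 counts), while miR-451, miR-144, miR-142-3p and miR-150 were in none. The viral probe mghv-miR-M1-5 had 110 to 214 counts in the same libraries, a range that covers the counts of miR-155. miR-223, a myeloid miRNA, behaved unlike any of these. Its counts were 92, 832 and 470 in the 4 h replicates and 136, 53 and 47 in the 24 h replicates, so it was above background in 4 libraries. Its coefficient of variation was 128%, and the second 4 h replicate alone carried 5300 CPM. Without that library the mean fell from 1548 to 797 CPM.

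The epithelial markers miR-200a, miR-141, miR-429 and miR-205 were below background in all 6 libraries, whereas miR-200b was above it in all of them (136 to 203 counts) and miR-200c in 3. The counts of miR-200b also lay within the range of the viral probe mghv-miR-M1-5 (110 to 214 counts). The liver miRNA miR-122 (36 to 64 counts) and the muscle miRNA miR-1 (19 to 30 counts) were at background, and so was miR-375, an islet and pituitary miRNA (14 to 41 counts). miR-133a, the other muscle miRNA named with miR-1, was just above background in all libraries, at 1.11 to 1.44 times the threshold. With 3 SD, or with the highest viral probe, as threshold miR-133a was not above it in all 6 libraries. miR-7a, abundant in endocrine and hypothalamic cells, was above background in 2 libraries with 62 to 112 counts. In the embryonic stem cell list 0 of 16 members were above background in all 6 libraries, 3 were in some, and the highest was miR-367 at 384 ± 100 CPM. The imprinted Dlk1-Dio3 list, active in brain, had 2 of 60 above background throughout, led by miR-539 (762 ± 106 CPM). The rodent Sfmbt2 intronic list had 2 of 33, led by miR-297c (1068 ± 245 CPM). Of all mouse probes 19.1% were above background throughout, and the shares in none were 81.7% for Dlk1-Dio3, 78.8% for Sfmbt2 and 81.2% for the embryonic stem cell list, against 62.7%. The Dlk1-Dio3 count was 1 with 3 SD, 0 with the highest viral probe as threshold and 3 without the first 4 h replicate. The shares of all mouse probes at these settings were 16.3, 13.1 and 20.8%.

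**Figure D4:**
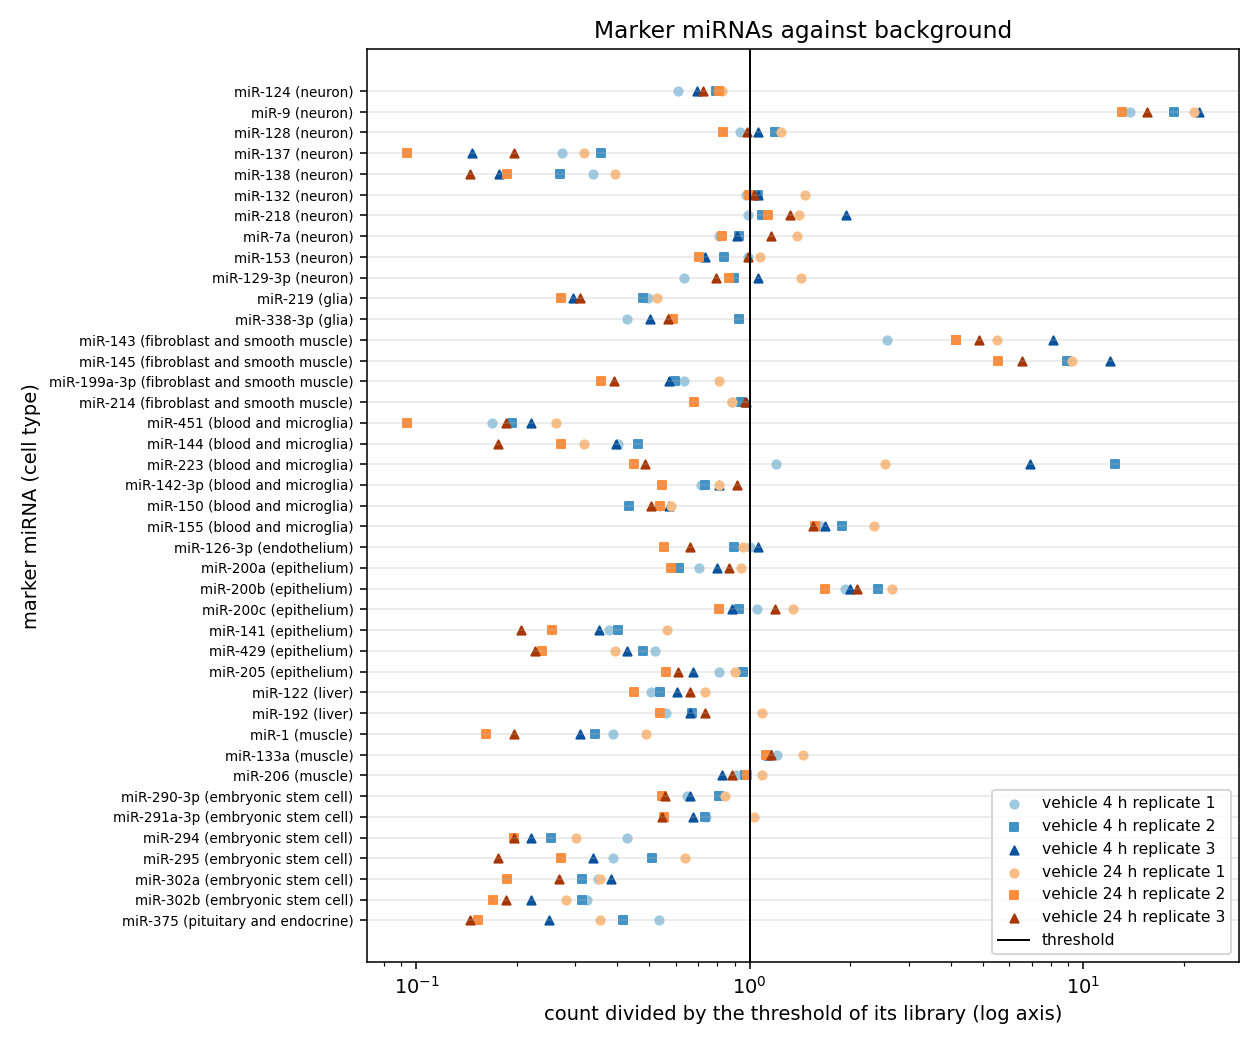
Count of each marker miRNA divided by the threshold of its library, on a log axis, with 1 point per vehicle library and the cell type in brackets. miR-9, miR-143, miR-145, miR-155, miR-200b and miR-133a lie right of the line at 1 in all 6 libraries, miR-124 lies left of it in all 6, and miR-223 spreads across it.

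Both arms of 1 hairpin were on the panel for 65 hairpins, and in 28 of these neither arm was above background in any library. A difference between arms was tested for the 9 hairpins with at least 1 arm above background in all 6 libraries, by an exact two-sided sign-flip permutation test over the 6 libraries with Benjamini-Hochberg adjustment over the 9. The smallest p this design allows is 0.03125. Of the 9, 8 (88.9%) were called unequal, 6 with the 5p arm higher and 2 with the 3p arm higher, each with an adjusted p of 0.0352 in that exact test. For miR-125b, miR-125a, miR-450a, miR-324 and miR-574 the other arm was not above background in every library. These 5 entered through their high arm. For 3 of them the other arm was above background in no library, so they had to differ. For miR-125a and miR-574 it was above background in 3 of 6 libraries, so the direction was fixed in the rest. The calls of these 5 and the 88.9% therefore support nothing. Each arm is read by its own probe, so a ratio includes any difference in capture. Of the 4 hairpins with both arms above background in all libraries, 3 were called. Their adjusted p was taken over all 9 hairpins and so also depends on the 5 that entered through their high arm.

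The difference was largest for miR-125b, whose 5p arm averaged 20024 counts and whose 3p arm averaged 50.8 counts, below background in every library. The log2 ratio was 8.60 ± 0.29 (SD, n = 6), higher for 5p in 6 of 6 libraries. For miR-125a the arms averaged 5599 and 76.7 counts, a log2 ratio of 6.15 ± 0.25, with the 3p arm above background in 3 of 6 libraries. miR-450a and miR-324 had 5p arms of 190 and 127 counts with 3p arms of 21.2 and 13.8 counts. These 3p arms were at or near background, so the ratios say how far the 5p arm stood above it.

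Both arms were above background in every library for miR-345, miR-532, miR-151 and miR-423. For miR-345 the 3p arm (216 counts) exceeded the 5p arm (89.3 counts), with a log2 ratio of −1.27 ± 0.64 and the same direction in 6 of 6 libraries. The 5p arm had 65 to 126 counts, 1.00 times the threshold in its lowest library, so this ratio rests on an arm near background. miR-532 had 301 and 182 counts, and miR-151 had 198 and 134 counts, both with 5p higher in 6 of 6. For miR-423 the arms were not called unequal: 284 against 197 counts, 5p higher in 4 of 6 libraries, adjusted p of 0.125 by the exact test. In limma with the library as a block it was called, with an adjusted p of 0.0393. miR-574 had 82.0 and 136.5 counts, 3p higher in 6 of 6, with the 5p arm above background in 3 libraries.

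**Figure D5:**
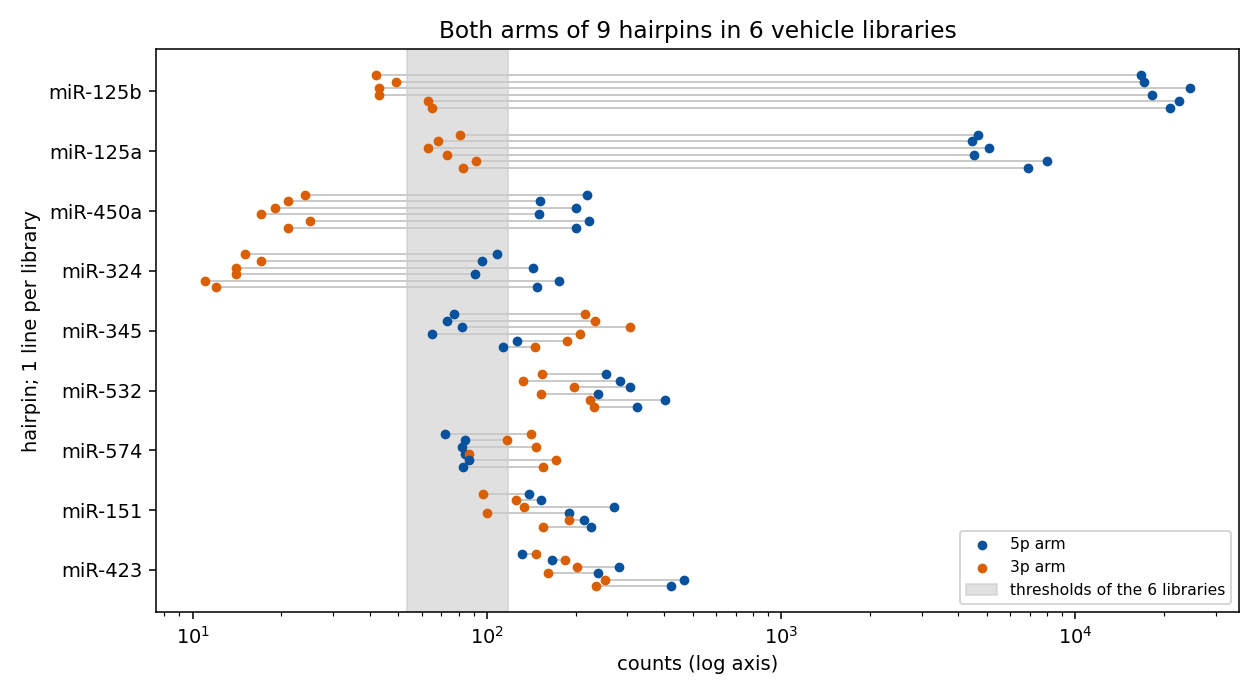
Counts of the 5p arm (blue) and the 3p arm (orange) of 9 hairpins on a log axis, 1 line per vehicle library in the order of replicates at 4 h and then 24 h, with the range of the 6 thresholds in grey. The 3p arms of miR-125b, miR-450a and miR-324 lie in or left of the grey band, while both arms of miR-345, miR-532, miR-151 and miR-423 were above the threshold of their own library.

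The spread of a miRNA over the 6 libraries is given as the coefficient of variation of its CPM, which covers repeat cultures and both times. Over the 108 miRNAs its median was 17.6%, where counting error alone would give a median of 5.37%. It was above 30% for 8 miRNAs and below 10% for 18. The least variable was miR-24 at 3.55%, with 681, 777 and 1031 counts in the 4 h replicates and 804, 1262 and 1200 in the 24 h replicates. Next came the joint miR-1937a and miR-1937b probe at 6.21%, miR-15b at 6.62%, miR-484 at 7.20% and miR-21 at 7.94%.

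The most variable were miR-29b (46.8%), miR-31 (43.1%), miR-322 (42.4%), miR-16 (37.4%) and let-7a (37.0%). All 5 were lowest in the first 4 h replicate. For miR-29b, miR-31, miR-322 and miR-16 all 3 values at 4 h lay below all 3 at 24 h. Over the 108 miRNAs, the values at 4 h and at 24 h did not overlap, in either direction, for 44 (40.7%). Picking miRNAs by their spread over both times favours such members. A difference between the times was not tested. miR-31, which is often lost in tumours, had 174, 468 and 863 counts in the 4 h replicates and 792, 1522 and 1466 in the 24 h replicates. Members of 1 family therefore differed in spread: miR-15b was among the steadiest and miR-16 and miR-322 among the least steady, with a shared seed. Without the first 4 h replicate the median over the 108 miRNAs was 15.2%.

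The share of probes above background differed with the number in the name, which is higher for miRNAs named later. Of probes for let-7 or a miRNA numbered below 500, 89 of 314 (28.3%) were above background in all 6 libraries. For numbers from 500 to below 1000 it was 11 of 141 (7.80%), and for numbers of 1000 and above 8 of 111 (7.21%). The last class contained the abundant miR-1937a and miR-1937b, miR-1944 and miR-1937c probes, none of them matched to a RefSeq mature sequence. Among matched probes, the first base was U in 46 of 79 (58.2%) of those above background throughout and in 72 of 173 (41.6%) of those above it in no library. Their median GC content was 45.5% and 50.0%. These shares describe the probes of this panel and were not tested.

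At the edge of detection, miR-709, miR-345-5p and miR-485 were the last 3 above background in all libraries, each at 1.00 times the threshold in its lowest library. miR-218, miR-33 and miR-2183 were the first 3 that failed, at 0.988, 0.995 and 0.995 times the threshold, and each was above it in 5 libraries. These 6 miRNAs averaged between 445 and 670 CPM, and the mean levels of the first 3 and the last 3 overlap.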

How the data were processed

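MicroRNA was counted on the NanoString nCounter mouse miRNA panel, per the labels and the deposited table. Values of the deposited raw table carry the unit expected count, since instrument header values in the same columns are not whole, but all probe values (100%) were whole and nothing was rounded. A second deposited table of processed signal values was not used, and its software is not stated in the labels. No group comparison was made, so the count model assumed in the plan was not needed. Counts were divided by each library's total of mouse miRNA counts. Background was the negative control mean plus 2 SD. Counting error alone limits a value of n counts to about its square root. Work was done in Python 3.11.15 and, for TMM scaling and the arm alternative, R 4.3.3 with edgeR 4.0.16 and limma 3.58.1. The detection call and the exact arm test were tried on simulated data, and the other statistics were not. Tested alternatives were other thresholds, scalings, family definitions and each library left out. Members, lists and tests were chosen with earlier results of these data known. Named probes were the 20 highest, the highest of each list and of the 10 largest families, arm pairs by size of difference, the 5 most and 5 least variable, 3 on each side of the threshold, and a set of known marker miRNAs; others (miR-99b, miR-92a, miR-18a, miR-182 and their cluster partners) were named after their values were seen.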

Additional observations from a re-analysis of the deposited data

Results flagged for a closer look

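In 5 of the 108 miRNAs (4.63%) 1 library lay far from the other 5 by Dixon's test, about the share that chance gives (1 in 20 groups). In the first 4 h replicate these were miR-99b at 9750 CPM, miR-450a-5p at 1534 CPM, miR-532-3p at 1083 CPM and miR-741 at 837 CPM, each the highest of 6. In the second 4 h replicate it was miR-539 at 968 CPM, also the highest. The viral probe mghv-miR-M1-5, outside the mouse miRNA measurement, averaged 141 counts (110 to 214), more than background in each of the 6 libraries. No cause was tested for any of these values.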

How the results depend on the processing

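No paired analysis was possible because the 4 h and 24 h groups are pooled rather than compared; the arms of a hairpin were paired within each library. With the library as block, limma called 9 of the 9 hairpins unequal, miR-423 being the one added. The exact test called 3 of the 4 hairpins with both arms above background. The count of 108 probes was 92 with 3 SD, 123 with the highest negative control and 95 with viral probes added to the controls; it was 126 in at least 5 and 161 in at least 3 libraries. With the highest viral probe as threshold, an alternative chosen after seeing the data, it was 74. The top 10 share moved to 57.9% with background subtracted, 58.5% over the 108 probes and 49.5% without miR-720 and miR-1274a. Under those alternatives the miR-21 share was 4.93, 4.98 and 5.00%, and the miR-125 share was 14.5% under both the second and the third. By name stem the miR-16 family held 3.88%, since miR-15 is then apart. The median coefficient of variation was 21.6% with background subtracted. Leaving out 1 library at a time gave 108 to 118 probes above background, 355 to 378 in none, 59 to 63 list members, a top 10 share of 52.0 to 53.0%, shares of 15.7 to 17.0% (let-7), 12.5 to 13.3% (miR-125), 8.51 to 9.58% (miR-29), 8.12 to 8.76% (miR-16) and 4.35 to 4.52% (miR-21), and a median variation of 15.2 to 19.0%. For arms it gave no value, as 5 libraries cannot reach the threshold. Background limits the lower ranks most: the negative control mean times 566 probes equals 9.45 to 14.8% of a library's counts.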

Other observations

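miR-142-5p was listed at 1 count in each of the 6 libraries, the lowest value of any mouse probe on average, while its partner arm miR-142-3p had 43 to 89 counts and was below background in all 6. miR-296-5p was the most abundant of the 10 probes that missed background in the first 4 h replicate alone: it had 69 counts there, against a threshold of 76.9, and reached 408 counts in another library.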
